A study of Homo sapiens with 4 samples.

Results

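The genes described here are 31 genes of cholesterol and fatty acid synthesis. They were picked by gene symbol from a list of names. The rule uses no measured value, but the list was drawn up with earlier results of these data known. All 31 were found among the 34608 genes of the files. Each had 40 or more reads summed over the 4 libraries, with totals from 64 for TM7SF2 to 39442 for ACLY, and all 31 were among the 14777 genes tested. They were read in A549 cells, a human cell line from an adenocarcinoma of the lung. RNA was taken after 3 h with either 100 nM dexamethasone (dex), a synthetic steroid that binds the glucocorticoid receptor, or 0.02% ethanol as vehicle (etoh), and 2 libraries were sequenced per treatment. All libraries come from this cell line. Whether both libraries of a treatment stem from separate cultures is not stated in the labels, and the spread behind the p-values may therefore be technical.

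Cholesterol is built from acetyl-CoA through mevalonate, isoprenoid phosphates and squalene, and fatty acids from acetyl-CoA through malonyl-CoA. The genes of both routes are driven by the sterol regulatory element-binding proteins (SREBPs), which SREBF1 and SREBF2 encode. The SREBPs are held in the endoplasmic reticulum together with their escort SCAP by the INSIG proteins when sterols are plentiful, and are carried to the Golgi and cut to release active factors when sterols fall. Alveolar type II cells, which A549 cells resemble in part, use fatty acids and cholesterol to make surfactant lipid.

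Libraries held from 9764159 to 11887526 reads aligned to named transcripts, and between 17.2% and 18.7% of all reads were unaligned. Values are given in CPM, the read count of a gene scaled to the same number of aligned reads in every library, and a gene at 0 lies below a floor of 3 counts, between 0.252 and 0.307 CPM, which covers counting error only. The hormone-responsive genes FKBP5, TSC22D3 and PER1 rose by 3.38, 4.46 and 3.87 on the log2 scale. All 5 epithelial markers were detected, and of these KRT8 rose by 1.03 and KRT18 by 0.68. PTPRC of leukocytes had 1 read in all, and VWF of endothelium and COL1A2 of fibroblasts had 0. The other markers of these cells that were found were LYZ, CDH5, DCN and PDGFRB, with 12, 14, 5 and 6 reads in all, CD68, at 3.28 to 4.07 CPM, and COL1A1, which ran from 10.5 to 21.3 CPM and rose by 0.56. Replicate differences tended weakly to run in opposite directions in the 2 groups: across 11117 genes with a mean of at least 50 reads, the log2 ratio of replicate 1 to replicate 2 in dex had a correlation of -0.217 with that in etoh, given as a description. Of the 31 genes, 10 had replicate differences of the same sign in both groups, 12 were higher in replicate 1 of dex and replicate 2 of etoh, and 9 the reverse. Mitochondrially encoded genes took 5.13% and 4.53% of the reads of dex replicates 1 and 2 and 4.39% and 5.15% of those of etoh replicates 1 and 2.

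After 3 h of dexamethasone 2 of the 31 synthesis genes passed the test, INSIG1 with a lower and LSS with a higher level than in vehicle. INSIG1 is a retention factor of SCAP and the SREBPs, and LSS is the cyclase that makes lanosterol, the earliest sterol of the route. Of the 31 genes, 1 rose and 1 fell at an adjusted p under 0.05 (edgeR's quasi-likelihood test of dex against etoh with Benjamini-Hochberg adjustment over all 14777 genes). That is 6.45% of them, against 11.4% of all genes tested, of which 6.98% rose and 4.42% fell. A further 1 gene on the higher side and 3 on the lower side had an unadjusted p under 0.05. How many of all genes tested met that unadjusted cut was not computed, so these counts have no share to be set against. The median log2 fold change of the 31 genes was -0.022, beside -0.003 for all genes tested, with 15 values above 0 and 16 below. For 23 of the 31 the 95% interval of the log2 fold change lay within 1.5-fold either way, a bound that 51.5% of all genes tested met. Intervals are wider at few reads, and the genes compared were not matched for depth. Together the 31 genes made up 0.339% and 0.342% of aligned reads for the dex libraries and 0.355% and 0.351% for the etoh libraries.

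**Figure D1:**
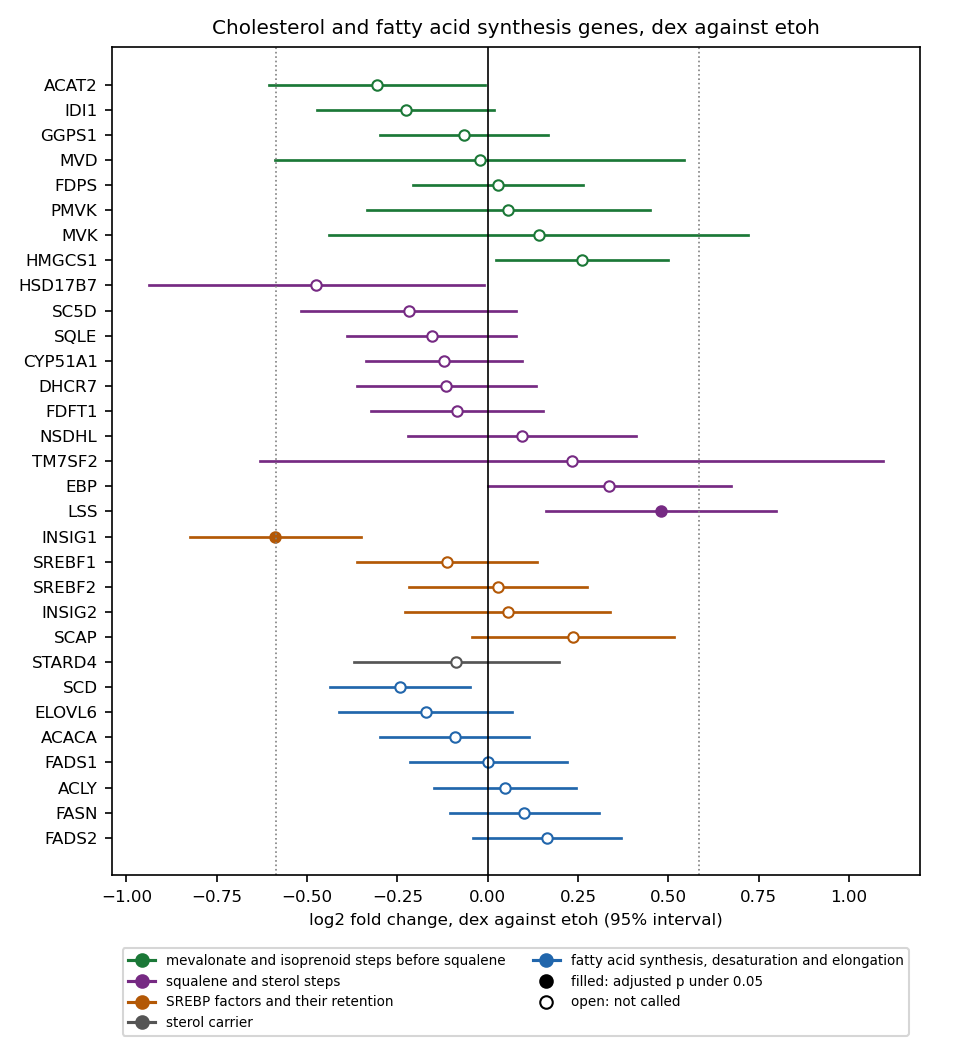
Log2 fold change of dex against etoh on the horizontal axis for each of the 31 genes, grouped by role, with 95% intervals from edgeR's fit (lines) and dotted lines at 1.5-fold. Only INSIG1, at -0.59, and LSS, at 0.48, are filled as called, and most intervals cross 0.

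INSIG1 stood at 40.1 and 45.7 CPM in dex replicates 1 and 2 and at 62.7 and 68.0 CPM in etoh replicates 1 and 2. Both dex libraries lay below both etoh libraries. Its log2 fold change was -0.59 (SE 0.11, 95% interval -0.83 to -0.35) with an adjusted p of 9.7e-04 by edgeR. INSIG1 was called lower under every alternative fit that was run, with log2 fold changes from -0.68 to -0.50 when each library was left out in turn.

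INSIG2, the second INSIG protein, had 28.4 and 24.6 CPM in dex and 26.1 and 25.5 CPM in etoh. The groups overlapped, and the log2 fold change was 0.05 (SE 0.14, adjusted p of 0.86 by edgeR) with a 95% interval from -0.23 to 0.34. Without dex replicate 1 it was -0.05. Compared per length, in CPM per kilobase of transcript (RPKM), the level of INSIG1 was 1.89 and 2.14 times that of INSIG2 in etoh replicates 1 and 2, and 1.13 and 1.43 times in dex replicates 1 and 2. The ratio was thus lower in both dex libraries, and its difference between groups was not tested.

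Among the other genes of SREBP control, SREBF1 encodes the factor that acts mainly on fatty acid genes and SREBF2 the one that acts mainly on cholesterol genes. SREBF1 had 125 and 97.9 CPM in dex and 112 and 132 CPM in etoh, a log2 fold change of -0.11 (SE 0.12, adjusted p of 0.63 by edgeR). SREBF2 had 64.6 and 53.0 CPM in dex and 55.9 and 60.7 CPM in etoh, a log2 fold change of 0.03 (SE 0.12, adjusted p of 0.92 by edgeR). Both genes had overlapping groups, and their 95% intervals ran from -0.36 to 0.14 and from -0.22 to 0.28. For SREBF1 the sign turned without dex replicate 2 (0.06) and without etoh replicate 2, and for SREBF2 without dex replicate 1 (-0.12) and without etoh replicate 1 (-0.01). SCAP had 33.1 and 33.8 CPM in dex and 24.99 and 32.3 CPM in etoh, with a log2 fold change of 0.24 and an adjusted p of 0.31 by edgeR.

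LSS had 28.8 and 23.3 CPM in dex replicates 1 and 2 and 16.8 and 20.9 CPM in etoh replicates 1 and 2. The dex libraries lay above the etoh libraries, with dex replicate 1 the highest and etoh replicate 1 the lowest. Its log2 fold change was 0.48 (SE 0.15, 95% interval 0.16 to 0.80) and its adjusted p was 0.046 by edgeR. The call did not hold without dex replicate 1 (0.32) or etoh replicate 1 (0.35), nor with library totals, DESeq2 or limma-voom, where the adjusted p was 0.057, 0.18 and 0.055. The same order of libraries, highest in dex replicate 1 and lowest in etoh replicate 1, was seen in LSS, EBP, PMVK, FASN and FADS2. These are 5 of the 31 genes. How common this order is among all genes was not computed, and its part in the LSS result was not tested.

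**Figure D2:**
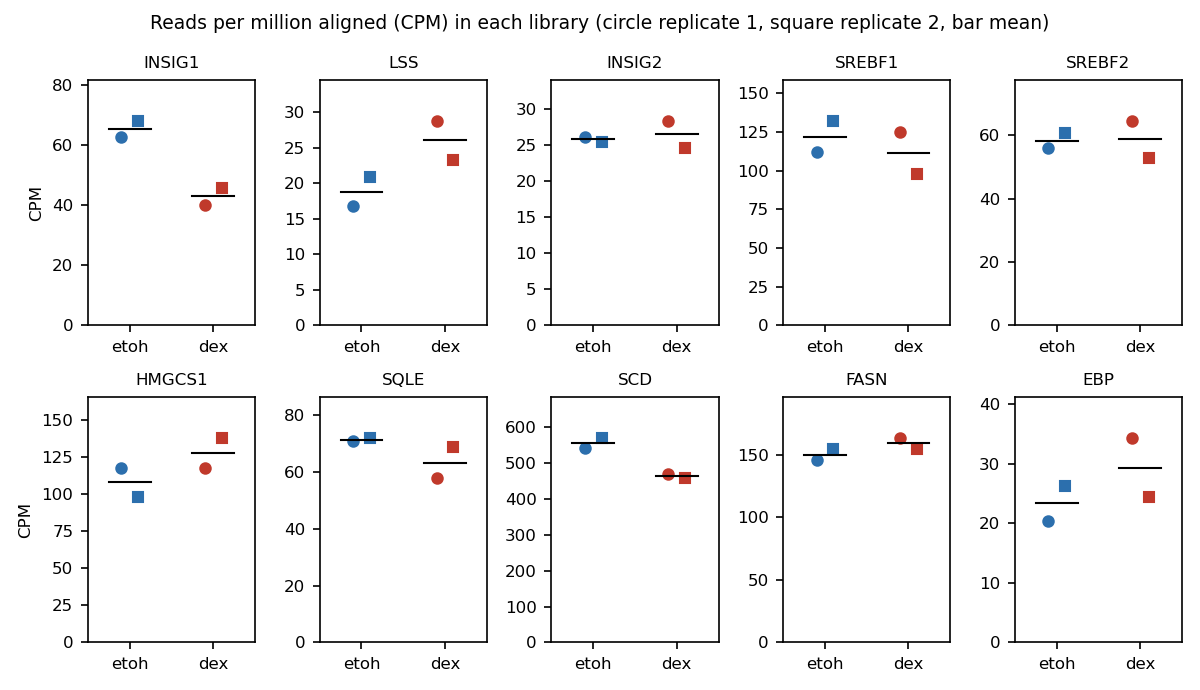
CPM in each library (vertical axes from 0) for INSIG1, LSS and 8 further genes, with circles for replicate 1, squares for replicate 2 and bars for group means. INSIG1 lies at 40.1 and 45.7 CPM in dex below 62.7 and 68.0 CPM in etoh, while SREBF1, SREBF2, INSIG2, HMGCS1 and EBP overlap between groups.

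The sequence before the RefSeq start site is shown for INSIG1 and LSS, the called genes, and for SREBF2. SREBF2 was the only gene with an exact match to TCACCCCAC, a form of the sterol regulatory element, and other forms were not searched. Windows from 250 bases before to 50 bases after a start were matched by symbol in RefSeq (GRCh38.p14) for 27 of the 31 genes, with 39 windows in all. No window was matched for ACAT2, FDFT1, FASN and SQLE. The 250 bases before the RefSeq start are printed, 5′ to 3′ on the strand of the gene. They come from chr7:155297628-155297877 (plus strand), chr21:46228775-46229024 (minus strand) and chr22:41832855-41833104 (plus strand). The end of each printed stretch lies inside the gene as placed by GENCODE, whose starts lie further upstream. Capitals mark matches on either strand to CCAAT (bound by NF-Y), GGGCGG (bound by Sp1), CACGTG (an E-box), TCACCCCAC (a sterol regulatory element) or AGAACA (a half-site of the glucocorticoid receptor), and neighbouring GGGCGG matches may share a base.
INSIG1: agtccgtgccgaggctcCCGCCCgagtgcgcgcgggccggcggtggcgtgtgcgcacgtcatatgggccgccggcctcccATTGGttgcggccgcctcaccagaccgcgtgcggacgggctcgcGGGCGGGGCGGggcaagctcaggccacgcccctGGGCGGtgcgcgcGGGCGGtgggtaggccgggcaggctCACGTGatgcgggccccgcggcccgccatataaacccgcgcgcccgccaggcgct
LSS: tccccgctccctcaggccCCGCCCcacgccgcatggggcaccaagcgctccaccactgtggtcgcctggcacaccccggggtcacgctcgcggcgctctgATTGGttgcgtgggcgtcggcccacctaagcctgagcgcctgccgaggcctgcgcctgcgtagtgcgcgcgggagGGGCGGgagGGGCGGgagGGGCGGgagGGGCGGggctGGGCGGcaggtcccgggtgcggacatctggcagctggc
SREBF2: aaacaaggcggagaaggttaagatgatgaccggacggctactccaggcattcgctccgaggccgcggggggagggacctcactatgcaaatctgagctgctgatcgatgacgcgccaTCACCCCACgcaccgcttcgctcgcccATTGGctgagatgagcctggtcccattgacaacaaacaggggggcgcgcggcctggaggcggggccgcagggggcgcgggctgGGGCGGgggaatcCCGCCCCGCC

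Positions of a match are those of its leftmost base as printed, counted from 0 at the RefSeq start. INSIG1 had a CCAAT match on the other strand at -170, a CACGTG match at -55 and 6 GGGCGG matches, the last of them at 33 and thus after the start. LSS had a CCAAT match on the other strand at -150 and 7 GGGCGG matches, the last of them at 3 and thus after the start. Its CACGTG match at 40 also lay after the start. SREBF2 had TCACCCCAC at -133 and a CCAAT match on the other strand at -106, and 1 of its 3 GGGCGG matches runs past the printed stretch. CCAAT was present in 61.5% of the windows of the 31 genes and in 34.6% of all 35116 RefSeq windows of the same length. GGGCGG was present in 87.2% and 45.0% of these, CACGTG in 12.8% and 7.26%, TCACCCCAC in 2.56% and 0.43%, and AGAACA in 2.56% and 14.8%. Several genes have more than 1 window, and a match is a description of the letters and not a bound site.

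INSIG1 and LSS were next read by transcript. Reads shared by transcripts of a gene are placed by the aligner, so these values depend on that placement. The 31 genes had 204 transcripts in the files and 141 were tested, of which 4 were called, against 5.64% of all 49857 transcripts tested. INSIG1 had 4 transcripts with over 3% of its reads. Of these INSIG1-001, with 29.6% of the reads, had 11.3 and 13.3 CPM in dex and 18.2 and 21.0 CPM in etoh and fell by 0.66 on the log2 scale (adjusted p of 0.0068 by edgeR over all transcripts). INSIG1-005 and INSIG1-003 fell by 0.61 and 0.66, and INSIG1-201 was at -0.47 with an adjusted p of 0.067. All 4 had both dex libraries below both etoh libraries, but as transcripts of the same gene they are not separate observations of its change.

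LSS also had 4 transcripts with over 3% of its reads, and they differed more among themselves. LSS-201, with 30.6% of the reads, had 9.16 and 7.90 CPM in dex and 4.51 and 5.89 CPM in etoh and rose by 0.71 (adjusted p of 0.042 by edgeR over all transcripts). LSS-001, the transcript with the most reads (34.4%), had 9.16 and 6.91 CPM in dex and 7.37 and 7.49 CPM in etoh, and its groups overlapped at a log2 fold change of 0.12. With LSS-001 standing for the gene, the log2 fold change of LSS was 0.14 and the gene was not called. LSS-010 and LSS-002 were at 0.58 and 0.63 and did not pass. DESeq2 called 0 transcripts of the 31 genes in either direction, and without dex replicate 1 edgeR called 0.

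**Figure D3:**
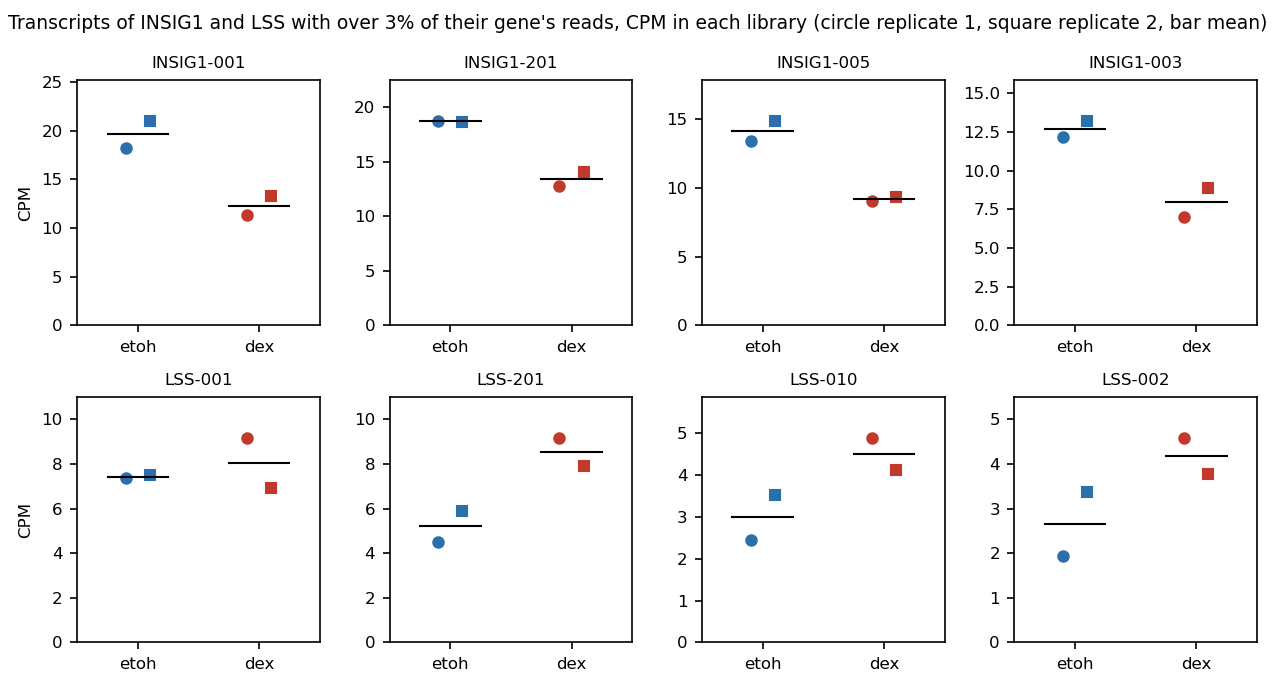
CPM in each library (vertical axes from 0) of the 4 transcripts each of INSIG1 and LSS with over 3% of the reads of their gene, with circles for replicate 1, squares for replicate 2 and bars for group means. All 4 INSIG1 transcripts are lower in dex, and LSS-001 overlaps between groups while the other LSS transcripts lie higher in dex.

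None of the 8 genes of the mevalonate and isoprenoid steps passed, with 0 called by edgeR and by DESeq2. Among all 14777 genes tested, edgeR called 11.4%, and DESeq2 called 653 higher and 383 lower. Of the 8 genes 1 on the higher and 1 on the lower side had an unadjusted edgeR p under 0.05, a cut not counted over all genes. The median log2 fold change of the 8 was 0.003. HMGCS1, which makes HMG-CoA, had 118 and 138 CPM in dex and 118 and 98.0 CPM in etoh. Its groups overlapped, since dex replicate 1 and etoh replicate 1 were nearly level, and its log2 fold change was 0.26 (SE 0.11, adjusted p of 0.17 by edgeR). Without etoh replicate 1 it was called, at 0.42, while it was at 0.12 without etoh replicate 2 and at 0.15 without dex replicate 2. ACAT2, the cytosolic acetoacetyl-CoA thiolase, had 32.8 and 36.0 CPM in dex and 50.6 and 35.8 CPM in etoh, a log2 fold change of -0.31 with an adjusted p of 0.20 by edgeR. Only etoh replicate 1 stood apart from the other libraries for ACAT2, which edgeR called lower without etoh replicate 2 (-0.55) and which was at -0.03 without etoh replicate 1.

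IDI1, which isomerises isopentenyl diphosphate, had 64.5 and 72.3 CPM in dex and 89.2 and 73.1 CPM in etoh and was at -0.23 (adjusted p of 0.26 by edgeR). FDPS, the farnesyl diphosphate synthase, and GGPS1, which makes geranylgeranyl diphosphate for protein prenylation, were at 0.03 and -0.07. The kinases MVK and PMVK and the decarboxylase MVD were at 0.14, 0.06 and -0.02. MVK and MVD had 146 and 216 reads in all, and at this depth their 95% intervals, -0.44 to 0.72 and -0.59 to 0.54, reached beyond 1.5-fold. The etoh libraries of MVD also lay apart, at 3.48 and 6.56 CPM, beside 5.19 and 4.76 CPM in dex.

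Of the 10 genes from squalene to cholesterol, LSS rose and 0 fell, beside 6.98% and 4.42% of all genes tested. The median log2 fold change of the 10 was -0.10. SQLE, the squalene epoxidase and a rate-limiting enzyme of the route, had 57.9 and 68.9 CPM in dex and 71.0 and 72.0 CPM in etoh. Both dex libraries were lower, but its log2 fold change of -0.16 (SE 0.11) had an adjusted p of 0.44 by edgeR, and it was -0.04 without dex replicate 1 and -0.28 without dex replicate 2. HSD17B7, the sterol keto reductase, had 4.88 and 6.11 CPM in dex and 6.96 and 8.496 CPM in etoh, a log2 fold change of -0.47 with a 95% interval from -0.94 to -0.01 and an adjusted p of 0.20 by edgeR. EBP, the sterol isomerase, had 34.3 and 24.3 CPM in dex and 20.4 and 26.3 CPM in etoh. Its groups overlapped at 0.34 (adjusted p of 0.21 by edgeR), and it was called higher without dex replicate 2 (0.57) and without etoh replicate 2 (0.53), while without dex replicate 1 it was at 0.07.

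FDFT1, which makes squalene, was at -0.09, the demethylase CYP51A1 at -0.12, the desaturase SC5D at -0.22 and the reductase DHCR7, the last enzyme of its branch, at -0.11. NSDHL, which removes a methyl group, was at 0.10. TM7SF2, a sterol reductase, had 64 reads in all and a 95% interval from -0.63 to 1.09, so that a change of 1.5-fold was not detectable at this depth. Both dex libraries lay below both etoh libraries for 5 of these 10 genes and above for 1. Over all 31 genes the counts were 10 below and 5 above, that is 10 of 31 and 5 of 31, beside 28.8% and 24.5% of all genes tested. STARD4, which carries sterols between membranes, overlapped between groups at -0.09.

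None of the 7 genes of fatty acid synthesis, desaturation and elongation passed, with 0 called by edgeR and by DESeq2. Among all 14777 genes tested, edgeR called 11.4%, and DESeq2 called 653 higher and 383 lower. At an unadjusted edgeR p under 0.05, a cut not counted over all genes, 1 of the 7 genes was lower and 0 higher. For all 7 the 95% interval lay within 1.5-fold, beside 51.5% of all genes tested. The 7 had from 2002 to 39442 reads in all, and depth was not matched. SCD, the delta-9 desaturase that makes oleate, had 469 and 458 CPM in dex and 541 and 570 CPM in etoh. Its replicates lay close together and both dex libraries were lower, yet its log2 fold change of -0.24 (SE 0.09, 95% interval -0.44 to -0.05) had an adjusted p of 0.11 by edgeR. FASN, the fatty acid synthase, had 163 and 155 CPM in dex and 146 and 155 CPM in etoh, a log2 fold change of 0.10 (SE 0.10, adjusted p of 0.59 by edgeR). Dex replicate 2 and etoh replicate 2 of FASN were nearly level.

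ACLY, which makes cytosolic acetyl-CoA from citrate, had 926 and 946 CPM in dex and 939 and 894 CPM in etoh, and its 95% interval ran from -0.15 to 0.25. ACACA, the acetyl-CoA carboxylase that makes malonyl-CoA, was at -0.09, and ELOVL6, which lengthens palmitate, at -0.17. The desaturases of polyunsaturated fatty acids, FADS1 and FADS2, were at 0.00 and 0.16. FADS1 and FADS2 overlap on opposite strands of chromosome 11 and share 2.12% of the compared FADS1 transcript and 4.05% of the compared FADS2 transcript. Whether counting used strand is not stated, so reads of such stretches cannot be told apart.

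The levels per length spanned a wide range in both groups. ACLY was the highest, with a mean of 259 ± 9.07 RPKM (SD, n = 2) in etoh and 270 ± 6.08 RPKM in dex. FADS1 (131 ± 6.57 RPKM in etoh), SCD (104 ± 3.77) and FADS2 (82.8 ± 3.77) followed, each apart from the next by more than the SDs. In dex SCD, at 86.4 ± 1.35 RPKM, lay below FADS2, at 94.5 ± 1.80 RPKM. FDFT1 (58.6 ± 5.78 RPKM in etoh) and CYP51A1 (56.2 ± 3.25) did not differ beyond their spread, and led the cholesterol genes. INSIG1 was in place 11 of 31 in etoh, at 35.9 ± 2.15 RPKM, and in place 17 in dex, at 23.3 ± 2.27 RPKM. LSS was in place 28 in etoh, at 5.44 ± 0.984 RPKM, and in place 25 in dex, at 7.82 ± 1.21 RPKM. MVK (2.42 ± 0.0782 RPKM in etoh) and TM7SF2 (1.38 ± 0.680) were the lowest.

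**Figure D4:**
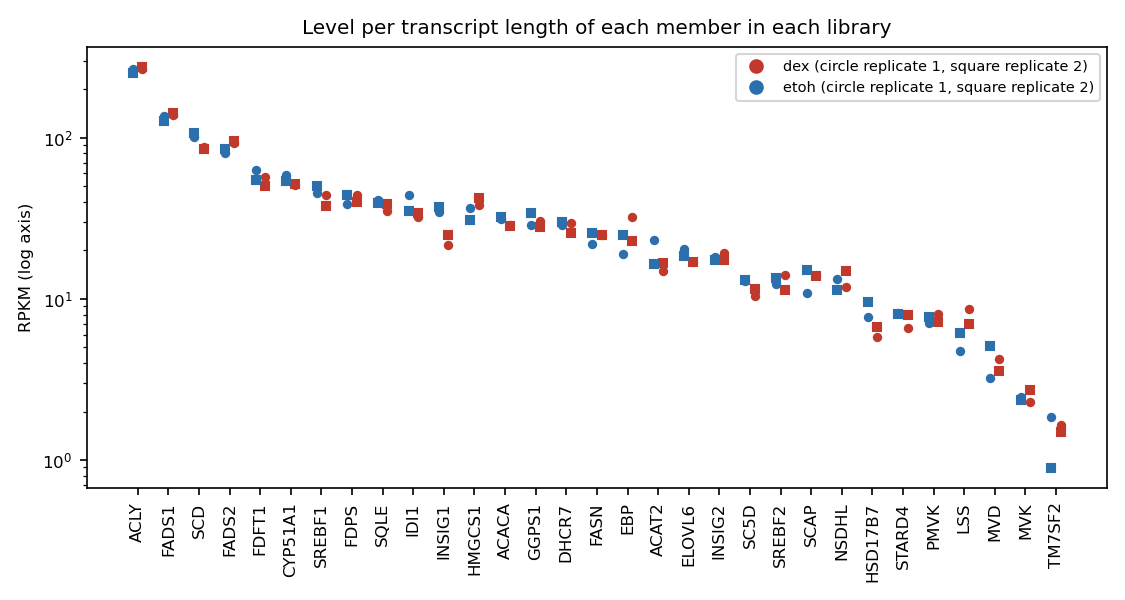
RPKM of each gene in each library on a log axis, ordered by the mean in etoh, with circles for replicate 1 and squares for replicate 2. ACLY (259 RPKM in etoh) and FADS1 lead, MVK and TM7SF2 are lowest, and most genes have dex and etoh points within a narrow band.

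Other stretches of 50 bases shared with counted genes touched several of the 31. Of the compared FDPS transcript 28.8% was shared with RUSC1-AS1 on the opposite strand (318 reads in all against 2512 for FDPS), of HMGCS1 17.5% with CTD-2636A23.2 (692 reads against 5011), and of ACAT2 11.2% with TCP1 (12743 reads against 1643). LSS shared 8.25% with AP001468.58, which had 3 reads in all. INSIG1 shared no such stretch over 1% of its length. In GENCODE 29 (GRCh38), INSIG1 lies on chromosome 7 from 155297776 to 155310235 and LSS on chromosome 21 from 46188141 to 46228824. SREBF2 begins at 41833079 on chromosome 22. These starts fall within the stretches printed above, which are placed by RefSeq. The CACGTG match of INSIG1 at -55 thus lies inside the GENCODE gene. Which start is used in these cells was not tested.

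The rest of the pathway was read from 5 further lists with 82 genes, 78 of them tested, and here 9 rose and 5 fell. These are 11.5% and 6.41% of the tested genes, beside 6.98% and 4.42% of all genes tested, and the median log2 fold change was 0.002. DESeq2 called 7 of the 78 higher and 1 lower, beside 653 higher and 383 lower of all 14777 genes tested. PPARGC1B, MLXIP, GRAMD1B, ABCA1, ACACB, AACS and AGPAT9 were called under every alternative fit that was run, 7 of the 14 genes.

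Of 15 genes of SREBP processing, degradation and lipid-sensing transcription, 2 rose and 0 fell, beside 6.98% and 4.42% of all genes tested. On the lower side 3 of the 15 had an unadjusted p under 0.05 by edgeR, a cut not counted over all genes. The count lower was 0 by DESeq2, 1 with library totals, with no count filter or without dex replicate 2, and 2 without etoh replicate 2. PPARGC1B, a coactivator of nuclear receptors and SREBPs, had 37.0 and 34.9 CPM in dex and 13.1 and 14.5 CPM in etoh. It rose by 1.40 (SE 0.14, adjusted p of 1.8e-07 by edgeR), with no overlap of the groups. MLXIP, a glucose-responsive transcription factor, rose by 0.50 (SE 0.11, adjusted p of 0.0027 by edgeR), from 56.2 and 60.8 CPM in etoh to 84.3 and 79.7 CPM in dex. MBTPS1 and MBTPS2, the proteases that cut the SREBPs, were at -0.01 and 0.17 and did not pass.

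Of 19 tested genes of sterol uptake, efflux, transport and storage, 2 rose and 3 fell, beside 6.98% and 4.42% of all genes tested. ABCA1, which exports cholesterol to apolipoprotein A-I, had 30.2 ± 1.73 CPM (SD, n = 2) in dex and 15.8 ± 1.01 CPM in etoh with no overlap, and rose by 0.95 (SE 0.14, adjusted p of 4.5e-05 by edgeR). NPC1, which releases cholesterol from lysosomes, rose by 0.33 (SE 0.10, adjusted p of 0.036 by edgeR). GRAMD1B, which carries cholesterol from the plasma membrane to the endoplasmic reticulum, had 78.3 and 75.0 CPM in dex and 116 and 116 CPM in etoh and fell by 0.58 (SE 0.10, adjusted p of 4.3e-04 by edgeR). LRP8, a lipoprotein receptor, fell by 0.47 (SE 0.12, adjusted p of 0.012 by edgeR). MYLIP, a ubiquitin ligase of lipoprotein receptors, fell by 0.96 (SE 0.28, adjusted p of 0.026 by edgeR) on 164 reads in all. NPC1 was not called with DESeq2, with its most-read transcript alone (0.28), with the block by replicate number (adjusted p of 0.094 by edgeR), or without any 1 of dex replicate 1 (0.26), etoh replicate 1 (0.32) and etoh replicate 2 (0.36), LRP8 with DESeq2 or without etoh replicate 2 (-0.37), and MYLIP with DESeq2 or without dex replicate 1 (-0.84) or etoh replicate 2 (-0.83).

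Of 28 tested further genes of fatty acid and glycerolipid synthesis, 4 rose and 1 fell, beside 6.98% and 4.42% of all genes tested. ACACB, the mitochondrial acetyl-CoA carboxylase, whose malonyl-CoA restrains fatty acid oxidation, had 25.6 and 22.7 CPM in dex and 11.8 and 15.1 CPM in etoh and rose by 0.85 (SE 0.16, adjusted p of 6.1e-04 by edgeR). AGPAT9, an enzyme of triglyceride synthesis now named GPAT3, rose by 0.56 (SE 0.11, adjusted p of 0.0012 by edgeR). AACS, which activates acetoacetate for lipid synthesis, rose by 0.61 (SE 0.13, adjusted p of 0.0027 by edgeR). FADS3, the third gene of the FADS cluster, rose by 0.69 (SE 0.16, adjusted p of 0.0058 by edgeR), from 11.0 and 10.9 CPM in etoh to 17.0 and 17.8 CPM in dex. With its most-read transcript alone FADS3 was at 0.40 and was not called. ELOVL7, an elongase, had 20.4 and 30.0 CPM in dex and 37.4 and 36.0 CPM in etoh and fell by 0.52 (SE 0.15, adjusted p of 0.025 by edgeR). ELOVL7 was not called without dex replicate 1 (-0.28) or etoh replicate 1 (-0.48), with DESeq2, or with its most-read transcript alone (-0.66).

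**Figure D5:**
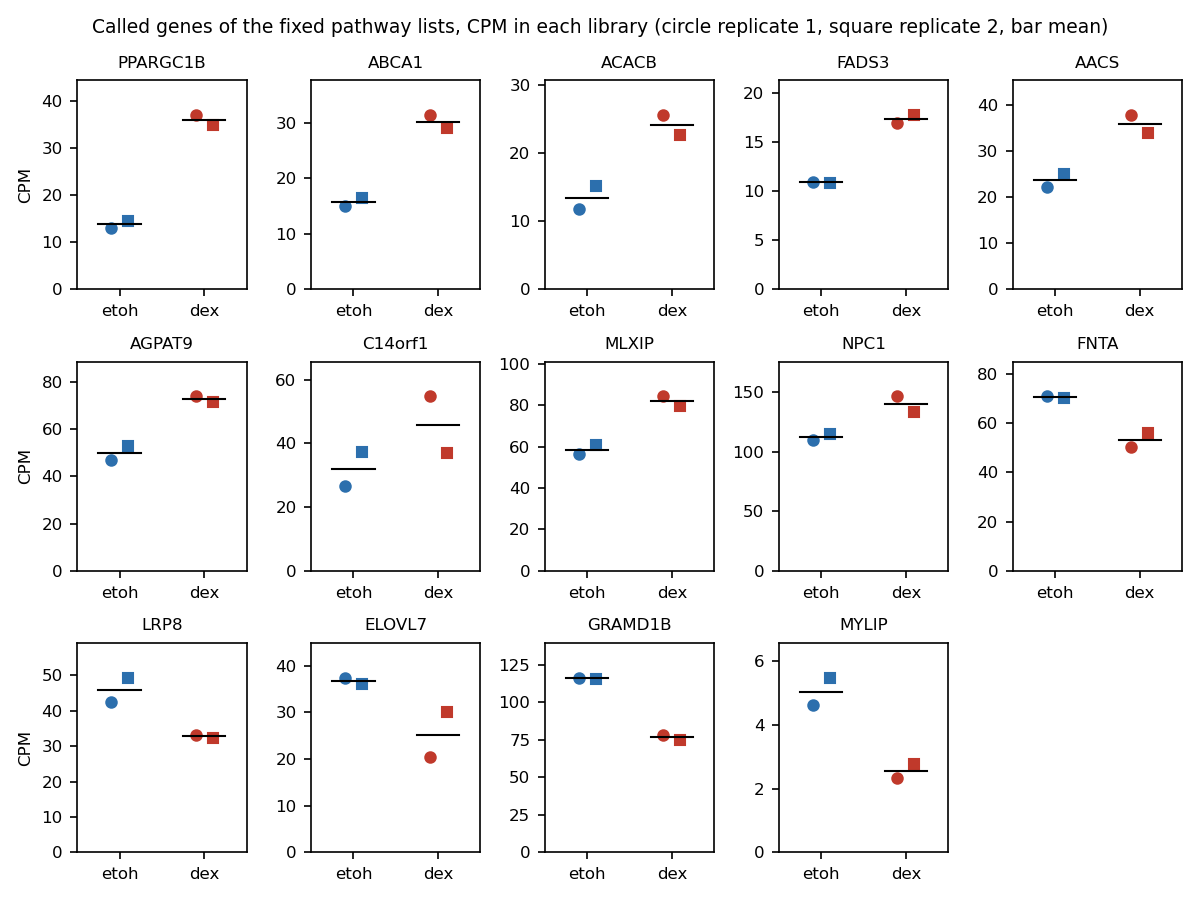
CPM in each library (vertical axes from 0) of the 14 called genes of the further pathway lists, ordered by fold change, with circles for replicate 1, squares for replicate 2 and bars for group means. PPARGC1B shows the widest gap, 37.0 and 34.9 CPM in dex against 13.1 and 14.5 CPM in etoh, while C14orf1 overlaps between groups.

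Of 14 genes of the isoprenoid branch, 1 fell and 0 rose, beside 4.42% and 6.98% of all genes tested. At an unadjusted p under 0.05 by edgeR, a cut not counted over all genes, 2 of the 14 were lower and 0 higher. DESeq2 called 0 of the 14 lower, beside 383 of all 14777 genes tested. Without dex replicate 2 the count lower was 2. FNTA, an alpha subunit of protein prenyltransferases, had 50.3 and 56.2 CPM in dex and 70.9 and 70.2 CPM in etoh. It fell by 0.39 (SE 0.11, adjusted p of 0.024 by edgeR). FNTA was not called when dex replicate 1 (-0.31), etoh replicate 1 (-0.36) or etoh replicate 2 (-0.40) was left out, nor with DESeq2 (adjusted p of 0.069) or with the replicate number as a block (adjusted p of 0.053). Of the 2 other sterol synthesis genes reported, C14orf1, a scaffold of the sterol demethylation complex now named ERG28, had 54.7 and 37.1 CPM in dex and 26.6 and 37.2 CPM in etoh. It rose by 0.53 (SE 0.16, adjusted p of 0.036 by edgeR) although its groups overlapped, was not called by DESeq2 or limma-voom, and without dex replicate 1 or etoh replicate 1 was at 0.23 or 0.33 and not called. LBR, a sterol reductase of the nuclear envelope, was at -0.18 and did not pass.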

How the data were processed

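The authors deposited raw counts, 1 file per library, each with a transcript name, its length, its aligned reads and its unaligned reads. The tools named per the submitters' processing notes are Bowtie, CASAVA, DESeq2 and SAMtools. The build, annotation, aligner settings and strand are not given in the sources used. Depth and unaligned shares are in the results. The unnamed row of unaligned reads stayed out of library sizes.

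Reads were summed over all transcripts of a gene identifier. Library size was the aligned total. Dex was compared with etoh (n = 2 each) across all genes with edgeR 4.0.16 in R 4.3.3, using TMM factors, filterByExpr (minimum count 10), the quasi-likelihood test and a threshold of 0.05 on the Benjamini-Hochberg adjusted p. SE was the absolute log2 fold change over the square root of F, and 95% intervals used the moderated degrees of freedom. RPKM was computed per transcript and summed, so it depends on read placement. Transcripts were fitted in the same way. The code was tested on simulated data.

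The members and lists were chosen with earlier results of these data known. Values are given in full for the called members and for SREBF1, SREBF2, INSIG1, INSIG2, HMGCS1, SQLE, FASN and SCD. For up to 6 called genes per further list the log2 fold change, SE and adjusted p are given, some without values in each library. Values in each library of ACAT2, IDI1, HSD17B7, EBP, SCAP and ACLY were added after they were seen. Genes on the further lists that are not reported here (6) were left out of the list counts. Alternatives were other scaling, filters, DESeq2 1.42.0, limma-voom (limma 3.58.1), a replicate block, the most-read transcript, an adjusted p of 0.01 and removal of each library. GENCODE 29 held 30 of the 31 identifiers.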

Additional observations from a re-analysis of the deposited data

How the results depend on the processing

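The number of members called higher, 1, was 0 with library totals, DESeq2, limma-voom, the most-read transcript and an adjusted p of 0.01, and the number called lower stayed at 1 in each. Over all genes, DESeq2 called 653 higher and 383 lower, and an adjusted p of 0.01 left 629 and 366. Both left 1 gene of the further lists lower, and DESeq2 called 0 member transcripts higher and 0 lower. When each library was left out in turn, 0 to 2 members were higher and 1 to 2 lower, 705 to 1159 genes higher and 406 to 806 lower, 7 to 10 genes of the further lists higher and 2 to 7 lower, and 0 to 3 member transcripts higher and 0 to 3 lower. The signs of 3 log2 fold changes near 0 turned, with ranges of -0.301 to 0.0597 for SREBF1 (0.0034 without etoh replicate 2), -0.1236 to 0.1736 for SREBF2 (-0.0128 without etoh replicate 1) and -0.053 to 0.1642 for INSIG2. These fits rest on fewer samples, and the cause of the turned signs and moved counts was not tested. Replicate numbers are shared by label only. With the replicate block, 974 genes were higher and 584 lower, the members' calls were the same (1 and 1), and of the named genes FNTA and NPC1 were no longer called. With crossed pairing, added after seeing the data, 3 members were higher and 2 lower, and 1538 genes higher and 1172 lower. Genes with few reads (TM7SF2, MVK, MVD) are limited by depth.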

Other observations

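Single transcripts of uncalled members are listed here because their values stood apart when seen, and none passed edgeR's test over all transcripts. DHCR7-001, which held 32.7% of the reads of DHCR7, had 12.1 and 11.9 CPM in dex and 16.4 and 15.3 CPM in etoh, a log2 fold change of -0.39 with an adjusted p of 0.17 by edgeR. DHCR7-003, with 32.4% of the reads, was at 0.01. FADS2-002, with 10.2% of the reads of FADS2, had 24.7 and 19.7 CPM in dex and 16.5 and 18.1 CPM in etoh, a log2 fold change of 0.37 with an adjusted p of 0.18 by edgeR. The most-read transcripts of FADS2, FADS2-001 (36.8% of its reads) and FADS2-003 (36.5%), were at 0.12 and 0.11. FADS1-014, a short transcript with 0.582% of the reads of FADS1, had 3.87 and 2.33 CPM in dex and 1.43 and 1.51 CPM in etoh, a log2 fold change of 1.06 with an adjusted p of 0.071 by edgeR. FADS1-001, with 85.7% of the reads of FADS1, was at -0.05.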
